A study of Mus musculus with 7 samples.

Results

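The Hox cluster genes are the homeobox genes of the HoxA, HoxB, HoxC and HoxD clusters together with the noncoding RNAs transcribed among them. Members were taken by symbol: Hoxa, Hoxb, Hoxc or Hoxd followed by a paralog number, Hotair, Hottip, Hotairm1, and symbols that start with Hox and end in as or os. The rule found 47 genes, of which 39 encode Hox proteins and 8 are noncoding (Hotair, Hottip, Hotairm1, Hoxaas2, Hoxaas3, Hoxa11os, Hoxb5os and Hoxd3os1). They occupied 64 of the 35534 loci of the deposited table, of which 25791 carried a gene name. Symbols, not expression values, chose them.

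RNA-seq was carried out on right gonadal fat of male CD-1 pups (an outbred mouse stock) on postnatal day 21. The exposed group held 4 pups whose dams ate BDE-47 (2,2′,4,4′-tetrabromodiphenyl ether, a brominated flame retardant) in tocopherol-stripped corn oil, at 0.2 mg per kg of body weight each day. The control group held 3 pups whose dams ate the same oil alone, and feeding in both groups lasted from pregnancy day 8 to postpartum day 21. Pups of a group came from different litters, exposure reached them only through the dam, and poly(A) RNA was sequenced. The authors deposited 1 FPKM per group (fragment counts divided by transcript length and by mapped fragments, so a level per length). No values per pup were given, so the spread between pups is unknown, no difference was tested, and each value below is the authors' group value. In bulk tissue, fewer cells of a type and less RNA per cell cannot be told apart.

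Hox proteins are transcription factors that bind DNA through a homeodomain, and each body region carries its own combination of them. Genes of a cluster lie in the order in which they are used along the head to tail axis, low paralog numbers in front and high ones behind, and Polycomb and trithorax complexes keep this pattern in adult cells. Fat depots keep a Hox pattern that reflects where in the body they arose.

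The 4 clusters are compact. On GRCm38 (the assembly also called mm10, GENCODE vM21 annotation) HoxA spans chr6:52155590-52260880 on the minus strand with 11 Hox genes, and HoxB spans chr11:96194316-96368256 on the plus strand with 10. HoxC spans chr15:102921103-103036852 with 9 and HoxD chr2:74668310-74765142 with 9, both on the plus strand. Their lengths are 105, 174, 116 and 96.8 kb. Several members share a locus in the table. Hoxa3 with Hoxa4, Hoxa5 with Hoxa6, Hoxa7 with Mira, and Hoxd3 with Hoxd4 and Mir10b make 4 joined loci whose reads cannot be told apart. Counted once per gene, at its locus of highest mean FPKM on the annotated strand, the 39 Hox genes had 36 loci, and these are the loci described unless another is named.

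The clusters also hold miRNA genes, whose products pair with Hox mRNAs. Their mature sequences (RefSeq, GRCm38.p6) are shown because the 5 genes fall into only a pair of seed families, each spread over more than 1 cluster. Capitals mark the seed, bases 2 to 8.
miR-10a-5p: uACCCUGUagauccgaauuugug
miR-10b-5p: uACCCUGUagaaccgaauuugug
miR-196a-5p: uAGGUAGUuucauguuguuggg
miR-196b-5p: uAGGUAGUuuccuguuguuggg
miR-10a lies at chr11:96317186-96317208 in HoxB and miR-10b at chr2:74726074-74726096 in HoxD, and they share the seed ACCCUGU. miR-196a is encoded at chr11:96265187-96265208 in HoxB and at chr15:102973365-102973386 in HoxC, and miR-196b at chr6:52230129-52230150 on the minus strand in HoxA. All 3 miR-196 genes have the seed AGGUAGU. Members of the miR-196 family are known to repress Hoxb8 and Hoxc8. Mature miRNAs carry no poly(A) tail and were not measured. The locus Mir196a-1, whose hairpin is 102 bases long, was listed at 0 in BDE-47 fat and at 13.3 FPKM in control fat. Mir10a, Mir196a-2, Mir196b and Mir615 were listed at 0 in both groups, and Mir10b was measured only inside the joined Hoxd3, Hoxd4 and Mir10b locus.

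Gonadal fat of both groups was dominated by central Hox genes, those of paralogs 4 to 8. They made up 83.2% of the FPKM summed over the 36 loci in BDE-47 fat (216 FPKM) and 82.4% in control fat (192 FPKM). Each joined locus was placed at its lowest paralog number. With joined loci at their highest number instead, paralogs 4 to 8 held 90.3% in BDE-47 fat and 89.8% in control fat. At the lowest number, paralogs 1 to 3 summed to 30.4 FPKM in BDE-47 fat and 30.3 FPKM in control fat, with the joined Hoxa3 and Hoxa4 and the joined Hoxd3, Hoxd4 and Mir10b loci among them, and to 12.1 and 12.9 FPKM without these. Paralog 9 summed to 10.8 and 10.2 FPKM, in the same order of groups. Paralogs 10 to 13 summed to 2.22 FPKM in BDE-47 fat and 0.604 FPKM in control fat, which is 0.855% and 0.259% of all Hox FPKM in those groups. HoxC held the largest share of the 4 clusters, 60.2% in BDE-47 fat and 58% in control fat.

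**Figure D1:**
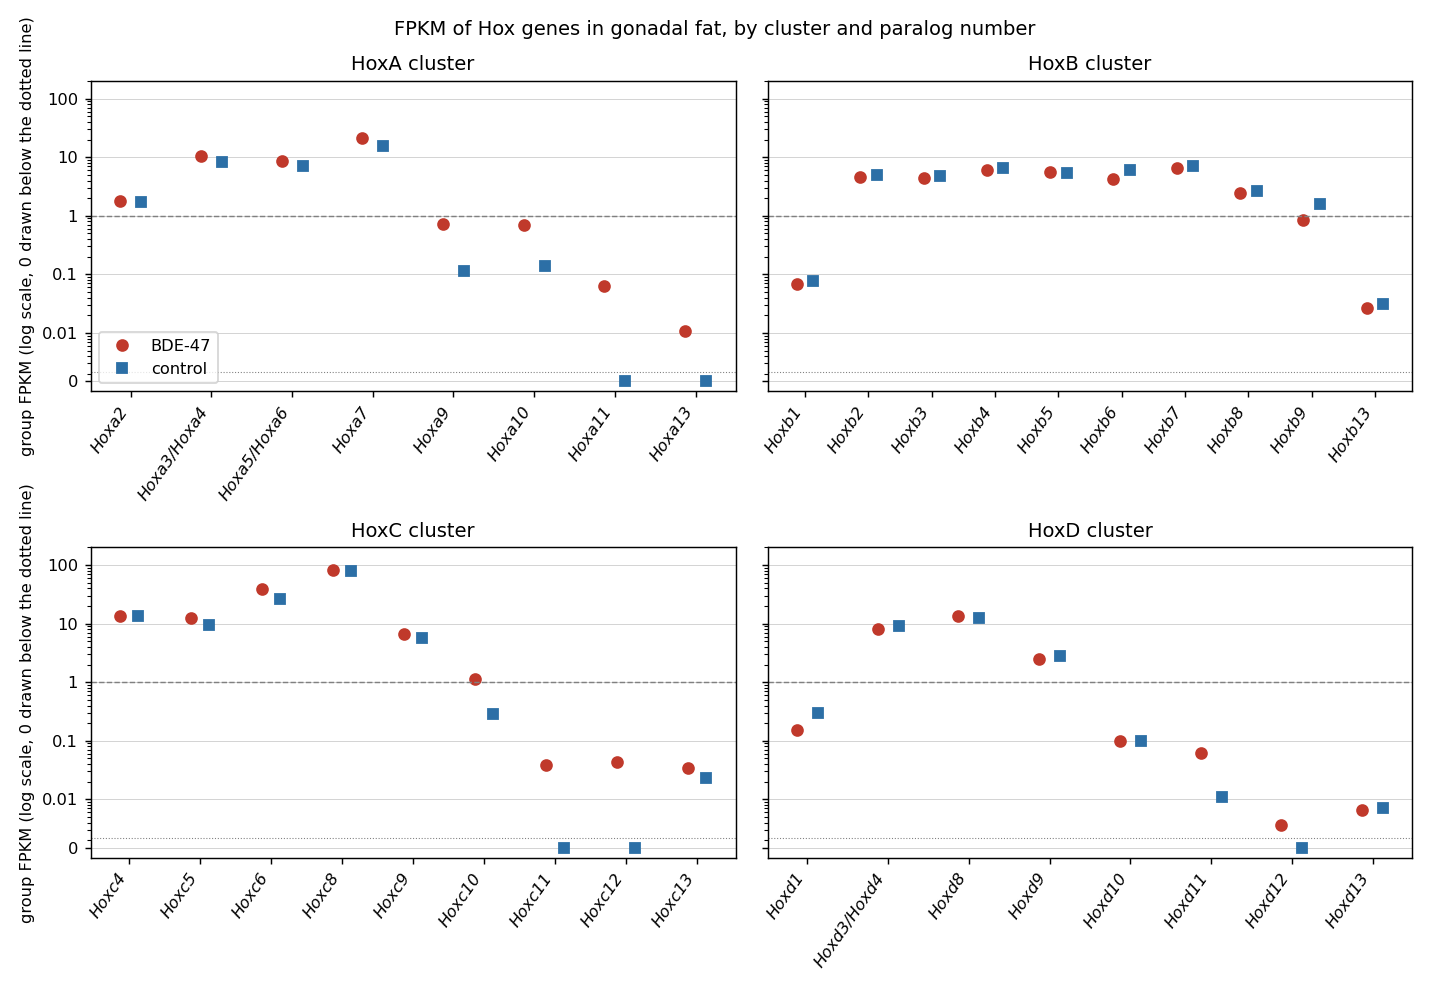
Group FPKM (log axis, with 0 drawn below the dotted line) of the Hox loci named in the text, in paralog order along each cluster; circles are BDE-47 fat and squares are control fat, and the dashed line marks 1 FPKM. Among the loci drawn, Hoxc8 was the highest at 82.1 and 80.4 FPKM in these groups, and 5 loci of paralogs 11 to 13 were listed at 0 in control fat only. These 5 had means under 0.1 FPKM, where 45.1% of all named loci were at least 2-fold higher in BDE-47 fat and 23.2% at least 2-fold lower.

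Hoxc8, which patterns the thoracic skeleton and is known in mice to restrain brown fat genes in white fat, was the highest Hox locus on the annotated strand. It lies at chr15:102990607-102994111 and was at 82.1 FPKM in BDE-47 fat and 80.4 FPKM in control fat, above 92.8% of named loci over 1 FPKM. Hoxc6 (chr15:102998257-103011881) came next by the mean of both groups, at 39.7 FPKM in BDE-47 fat and 26.2 FPKM in control fat. The joined Hoxa7 and Mira locus had a mean of 18.4 FPKM, Hoxc4 13.4, Hoxd8 12.8 and Hoxc5 11 FPKM. Without a spread between pups, it cannot be said which neighbours in this order differ.

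A locus was counted as higher or lower when its group values differed at least 2-fold, among named loci over 1 FPKM in at least 1 group. Of the 64 member loci, 39 passed that filter, and 25 did not. Of these 39, 2 were at least 2-fold higher in BDE-47 fat, against a background of 1.04% of all 14262 named loci (148 loci). None was at least 2-fold lower, against a background of 4.24% (605 loci). The median log2 difference, BDE-47 minus control, was 0.03 over the 39 loci and 0.01 over all 14262, with 20 member loci above 0 and 19 below. The 2 loci were Hoxc10 and a locus named Hoxaas3 that is numbered with the Hoxa strand. Both entered only through their BDE-47 value, since their control values were under 1 FPKM. At the 36 loci counted once per gene, 22 passed the filter and 1 of them, Hoxc10, was at least 2-fold higher.

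**Figure D2:**
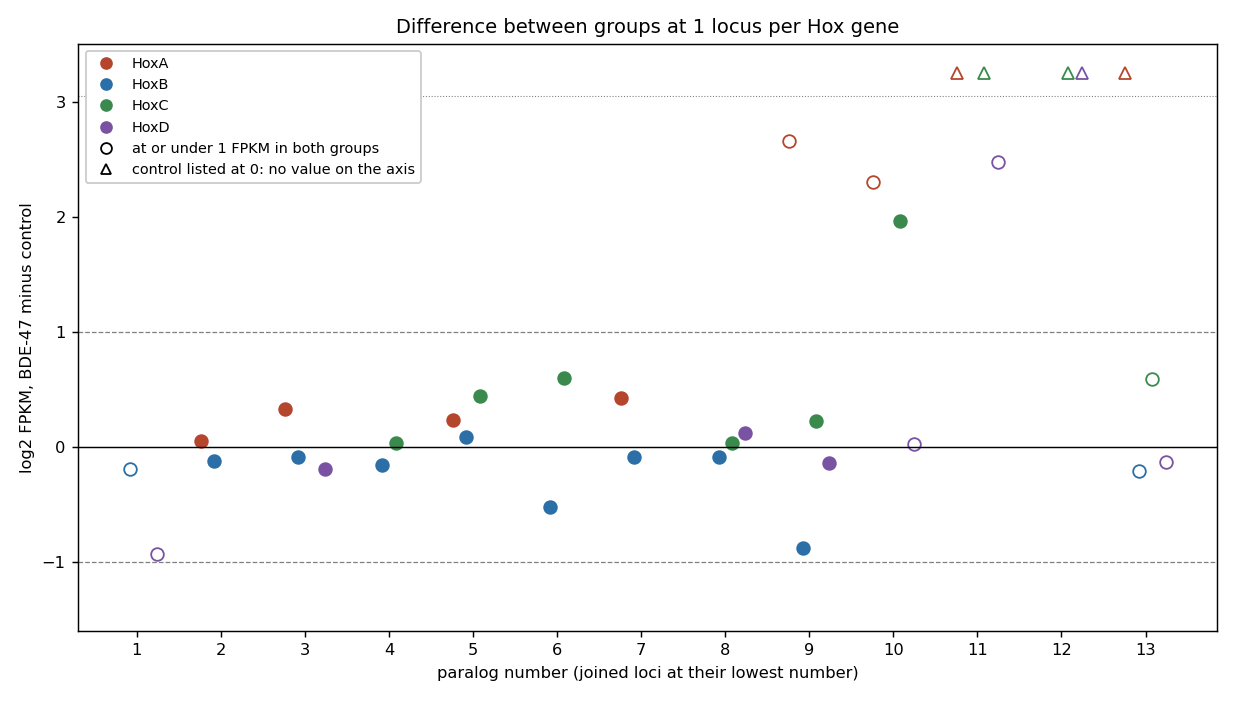
Log2 difference of group FPKM, BDE-47 minus control, at the Hox loci named in the text against paralog number, coloured by cluster; filled points passed 1 FPKM in at least 1 group, open points did not, triangles have a control value of 0 and no value on the axis, and dashed lines mark 2-fold. The HoxA and HoxC points drawn lie above 0, and HoxB points lie below 0 apart from Hoxb5 at 0.08.

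In HoxA, 6 of the 7 loci above 0 in both groups were higher in BDE-47 fat. Hoxa2, which shapes the middle ear and its arch, was at 1.79 FPKM in BDE-47 fat and 1.73 FPKM in control fat. The joined Hoxa3 and Hoxa4 locus was at 10.3 FPKM in BDE-47 fat and 8.17 FPKM in control fat, a log2 difference of 0.33. Hoxa3 is needed for the thymus and the parathyroid. The joined Hoxa5 and Hoxa6 locus was at 8.46 FPKM in BDE-47 fat and 7.21 FPKM in control fat (0.23 on the log2 scale), and Hoxa5 is needed for lung development. The joined Hoxa7 and Mira locus was at 21.1 FPKM in BDE-47 fat and 15.8 FPKM in control fat (0.42).

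The posterior HoxA genes were low and differed more. Hoxa9, a regulator of blood stem cells (chr6:52223100-52231089), was at 0.717 FPKM in BDE-47 fat and 0.113 FPKM in control fat, 6.32-fold. Its neighbour Hoxa10, which acts in the uterus and the male reproductive tract (chr6:52231197-52240854), was at 0.693 FPKM in BDE-47 fat and 0.141 FPKM in control fat, 4.92-fold. Neither reached 1 FPKM in either group. Hoxa11, which patterns the forearm and the reproductive tract, was at 0.0638 FPKM in BDE-47 fat and listed at 0 in control fat. Hoxa13, which acts in digits and the genital tubercle, was at 0.0107 FPKM in BDE-47 fat and listed at 0 in control fat. The noncoding Hoxa11os, on the strand opposite Hoxa11, was at 0.131 FPKM in BDE-47 fat and 0.0147 FPKM in control fat. Hottip, a noncoding RNA beyond Hoxa13 that recruits Wdr5 complexes in human cells, was at 0.0126 FPKM in BDE-47 fat and listed at 0 in control fat.

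In HoxC, 7 of 7 loci on the annotated strand that were above 0 in both groups were higher in BDE-47 fat. Over all 11 HoxC loci of either strand and kind above 0 in both groups, 10 were higher and 1 was lower, an opposite-strand Hoxc8 locus at 78.8 FPKM in BDE-47 fat and 100.4 FPKM in control fat. Hoxc4 was at 13.5 FPKM in BDE-47 fat and 13.3 FPKM in control fat, and Hoxc5 was at 12.6 and 9.32 FPKM in these groups. Hoxc6 was 1.52-fold higher in BDE-47 fat, while Hoxc8 beside it had a log2 difference of 0.03. Hoxc9 was at 6.68 FPKM in BDE-47 fat and 5.74 FPKM in control fat (0.22). Hoxc10, known in mice to repress browning of subcutaneous fat (chr15:102966796-102971893), was at 1.13 FPKM in BDE-47 fat and 0.291 FPKM in control fat, 3.89-fold. Hoxc11 was at 0.0393 FPKM and Hoxc12 at 0.0439 FPKM in BDE-47 fat, and both were listed at 0 in control fat. Hoxc13, a hair and nail gene, was at 0.0344 FPKM in BDE-47 fat and 0.0229 FPKM in control fat. Hotair, the noncoding RNA between Hoxc11 and Hoxc12 that binds Polycomb complexes in human cells, was at 0.0854 FPKM in BDE-47 fat and listed at 0 in control fat.

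HoxB ran the other way, with 9 of 10 loci lower in BDE-47 fat, though by small amounts. Hoxb2 was at 4.59 FPKM in BDE-47 fat and 4.99 FPKM in control fat, and Hoxb3 at 4.5 and 4.79 FPKM. Hoxb4, known for expanding blood stem cells, was at 5.94 FPKM in BDE-47 fat and 6.63 FPKM in control fat. Hoxb5 was the exception, at 5.58 FPKM in BDE-47 fat and 5.28 FPKM in control fat. Hoxb7 was at 6.59 and 7.01 FPKM and Hoxb8, which affects grooming in mice, at 2.46 and 2.62 FPKM in these groups. The differences of these 6 genes lay between −0.16 and 0.08 on the log2 scale. Hoxb6 stood lower, at 4.26 FPKM in BDE-47 fat and 6.11 FPKM in control fat (−0.52). Hoxb9, which patterns the rib cage (chr11:96271457-96276595), was lowest relative to control, at 0.859 FPKM in BDE-47 fat and 1.58 FPKM in control fat, 1.84-fold higher in control fat and so short of 2-fold. At the ends of the cluster Hoxb1, a hindbrain gene, was at 0.0684 FPKM in BDE-47 fat and 0.078 FPKM in control fat, and Hoxb13, a prostate and tail gene, at 0.027 and 0.0312 FPKM.

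HoxD was mixed, with 3 loci higher and 4 lower of the 7 above 0 in both groups. Hoxd8 was at 13.4 FPKM in BDE-47 fat and 12.3 FPKM in control fat (0.12). The joined Hoxd3, Hoxd4 and Mir10b locus was at 8.06 FPKM in BDE-47 fat and 9.19 FPKM in control fat (−0.19). Hoxd9, which acts in lumbar segments and limbs, was at 2.53 FPKM in BDE-47 fat and 2.79 FPKM in control fat (−0.14). The others were under 1 FPKM in both groups. Hoxd1, which acts in pain-sensing neurons, was at 0.154 FPKM in BDE-47 fat and 0.293 FPKM in control fat (−0.93). Hoxd10 was at 0.101 and 0.0994 FPKM in these groups. Hoxd11, a forearm and kidney gene, was at 0.0608 FPKM in BDE-47 fat and 0.011 FPKM in control fat (2.47). Hoxd12 was at 0.00359 FPKM in BDE-47 fat and listed at 0 in control fat, and Hoxd13, a digit gene, was at 0.00657 and 0.00719 FPKM.

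Summed over its loci, HoxA was at 44.1 FPKM in BDE-47 fat and 34.2 FPKM in control fat, a ratio of 1.29. HoxC was at 156 and 135 FPKM (1.15), HoxB at 34.9 and 39.1 FPKM (0.891) and HoxD at 24.3 and 24.7 FPKM (0.983), with the BDE-47 sum given first in each pair. Median log2 differences of loci past the filter were 0.23 for HoxA (5 loci), 0.33 for HoxC (6 loci), −0.10 for HoxB (8 loci) and −0.14 for HoxD (3 loci). With the other-strand loci of Hox genes added, HoxC summed to 239 FPKM in both groups, a ratio of 1, so its higher sum in BDE-47 fat depended on taking the annotated strand alone. HoxA then had a ratio of 1.3 and HoxB of 0.873. The HoxA median rested on joined loci and was −0.01 over its single-name loci of either strand. All 36 loci together summed to 259 FPKM in BDE-47 fat and 233 FPKM in control fat, a ratio of 1.11, and 1.16 without Hoxc8. With both strands that ratio was 1.02.

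Loci of paralogs 9 to 13 were counted by pairs of clusters, and Hoxc9, Hoxd9 and Hoxb9 among them had means over 1 FPKM. The pairing was not planned and follows the cluster medians, above 0 in HoxA and HoxC and below 0 in HoxB and HoxD. The contrast between the pairs was therefore partly set by that choice and is not a separate result. In HoxA and HoxC, paralogs 9 to 13 had 9 loci, of which all 5 above 0 in both groups were higher in BDE-47 fat and 4 were listed at 0 in control fat only. In HoxB and HoxD they had 7 loci, with 2 higher and 4 lower in BDE-47 fat and 1 listed at 0 in control fat only. The higher ones, Hoxd11 (2.47) and Hoxd10 (0.02), and the one at 0 in control fat, Hoxd12, were all in HoxD. The lower ones were Hoxb9 (−0.88), Hoxb13 (−0.21), Hoxd9 (−0.14) and Hoxd13 (−0.13), none by 2-fold. The loci at 0 in control fat only had means under 0.1 FPKM. Of all named loci with a mean over 0 and under 0.1 FPKM, 45.1% were at least 2-fold higher in BDE-47 fat and 23.2% at least 2-fold lower. Loci at 0 in 1 group only are counted in these shares. Across the 7 HoxA loci above 0 in both groups, paralog number and log2 difference were ordered alike, with a rank correlation of 0.93. These loci are not independent replicates and share the same libraries. The same rank correlation was 0.49 over 7 HoxC loci, 0.64 over 7 HoxD loci, −0.26 over 10 HoxB loci and 0.31 over all 31.

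Low loci differ 2-fold often, and the posterior genes are read against that. With a mean of both groups of 0.1 to 1 FPKM, 5 of 15 member loci (Hoxa9, Hoxa10, Hoxc10 and 2 loci named Hoxaas3) were at least 2-fold higher in BDE-47 fat, against a background of 8.91% of named loci at that level. None of the 15 was at least 2-fold lower, against a background of 20.0%. With a mean under 0.1 FPKM, 9 of 13 were at least 2-fold higher, or above a control value of 0, against a background of 45.1%, and none was lower, against a background of 23.2%. Those 9 were Hoxa11, Hoxa13, Hoxa11os, Hottip, Hoxc11, Hoxc12, Hotair, Hoxd11 and Hoxd12. With 1 FPKM added to both groups, the log2 differences shrank to 0.62 for Hoxa9, 0.57 for Hoxa10, 0.72 for Hoxc10 and 0.07 for Hoxd11. Around the filter of 1 FPKM, the loci just inside included Hoxb9 and Hoxc10, with means of 1.22 and 0.712 FPKM. Among loci counted once per gene, those just outside were Hoxa10 and Hoxa9, with means of 0.417 and 0.415 FPKM. Some other member loci outside the filter lay closer to 1 FPKM. The annotated-strand Hoxaas3 locus was one, at 0.824 FPKM in BDE-47 fat and 0.807 FPKM in control fat.

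Sequence before the start of 4 neighbouring HoxA genes is shown because Hoxa9 and Hoxa10 had larger differences than the loci of Hoxa5 and Hoxa7. On the annotated strand, Hoxa5 was measured only joined with Hoxa6, and Hoxa7 only joined with Mira. Windows of 250 bases before the RefSeq start matched 22 of the 39 Hox genes. The lines below (GRCm38.p6, minus strand) are chr6:52204588-52204837 for Hoxa5, chr6:52218712-52218823 for Hoxa7, chr6:52227371-52227620 for Hoxa9 and chr6:52240855-52241104 for Hoxa10. The Hoxa7 line holds 112 bases, the longest stretch of its window outside annotated exons. An exon of another Hoxa7 transcript (78 bases) and the 60 bases between it and the start are not shown. The Hoxa7 and Hoxa9 windows lie inside the GENCODE spans of their genes, which reach farther upstream than the RefSeq starts used. Capitals mark CG dinucleotides and TTTATG, the core recognised by Cdx proteins, which act upstream of Hox genes in the embryo.
Hoxa5: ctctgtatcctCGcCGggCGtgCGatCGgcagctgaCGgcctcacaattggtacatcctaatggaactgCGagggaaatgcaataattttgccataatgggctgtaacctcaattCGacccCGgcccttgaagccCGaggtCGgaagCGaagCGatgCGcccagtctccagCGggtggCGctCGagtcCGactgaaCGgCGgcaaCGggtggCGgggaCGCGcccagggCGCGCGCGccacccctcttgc
Hoxa7: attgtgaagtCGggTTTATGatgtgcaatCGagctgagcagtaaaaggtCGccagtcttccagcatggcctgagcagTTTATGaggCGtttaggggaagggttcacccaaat
Hoxa9: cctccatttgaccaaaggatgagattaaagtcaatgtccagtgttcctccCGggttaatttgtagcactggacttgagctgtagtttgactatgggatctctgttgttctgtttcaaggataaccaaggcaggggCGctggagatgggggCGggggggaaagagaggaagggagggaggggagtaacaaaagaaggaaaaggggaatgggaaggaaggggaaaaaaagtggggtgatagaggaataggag
Hoxa10: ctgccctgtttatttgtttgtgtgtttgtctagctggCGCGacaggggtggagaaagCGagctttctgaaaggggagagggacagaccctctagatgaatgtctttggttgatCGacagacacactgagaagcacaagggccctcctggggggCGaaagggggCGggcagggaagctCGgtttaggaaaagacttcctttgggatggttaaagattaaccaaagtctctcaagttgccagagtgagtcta
The whole windows held 28 CG dinucleotides at Hoxa5, 7 at Hoxa7, 3 at Hoxa9 and 7 at Hoxa10, against a median of 12 over the 22 Hox windows and 6 over all 32851 windows. Both TTTATG matches of the 4 windows lay at Hoxa7. On either strand, TTTATG occurred in 5 of 22 Hox windows and 10.8% of all windows, and TATAAA, the TATA box, in 3 of 22 and 12.4%. AGGTCA, a half-site of retinoic acid receptors, occurred in 6 of 22 Hox windows and 14% of all. TGATTNAT, a site bound by Hox and Pbx proteins together, occurred in 1 of 22 and 2.82%, and TAATTA, a homeodomain core, in 1 of 22 and 4.84%. TTTATG shares all but its last letter with the reverse complement of TATAAA, so matches to both cannot begin at the same base. A match is a description of the window only.

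Many Hox genes had further loci on the strand opposite the annotated gene. The table gives no strand, but its locus numbers run by chromosome and strand, and 91.1% to 93.2% of single-name loci on the 4 chromosomes were numbered with their annotated strand. By this reading, 12 Hox gene loci of 9 genes were numbered with the other strand. Whether the counting used strand is not given in the sources used here, so reads of a gene and of its antisense partner cannot be told apart.

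Hoxc8 had the largest such locus, at 78.8 FPKM in BDE-47 fat and 100.4 FPKM in control fat (−0.35), as high as Hoxc8 itself. Hoxc8 and this locus together summed to 161 FPKM in BDE-47 fat and 181 FPKM in control fat (−0.17), so adding it turned the direction of Hoxc8. It made up 49% of the FPKM named Hoxc8 in BDE-47 fat and 55.5% in control fat. At Hoxa7 the other strand was at 13.1 FPKM in BDE-47 fat and 9.32 FPKM in control fat, or 38.3% and 37.1% of the FPKM of that name. Hoxb6 was again lower in BDE-47 fat on its other strand, at 1.02 FPKM in BDE-47 fat and 1.71 FPKM in control fat (−0.74). The other 6 genes had summed other-strand values of 0.463 to 2.67 FPKM in BDE-47 fat and 0.637 to 2.43 FPKM in control fat. Those of Hoxa3, Hoxc4 and Hoxc9 were higher in BDE-47 fat, and those of Hoxb3, Hoxb4 and Hoxb5 were higher in control fat. No other-strand locus of a Hox gene differed 2-fold.

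**Figure D3:**
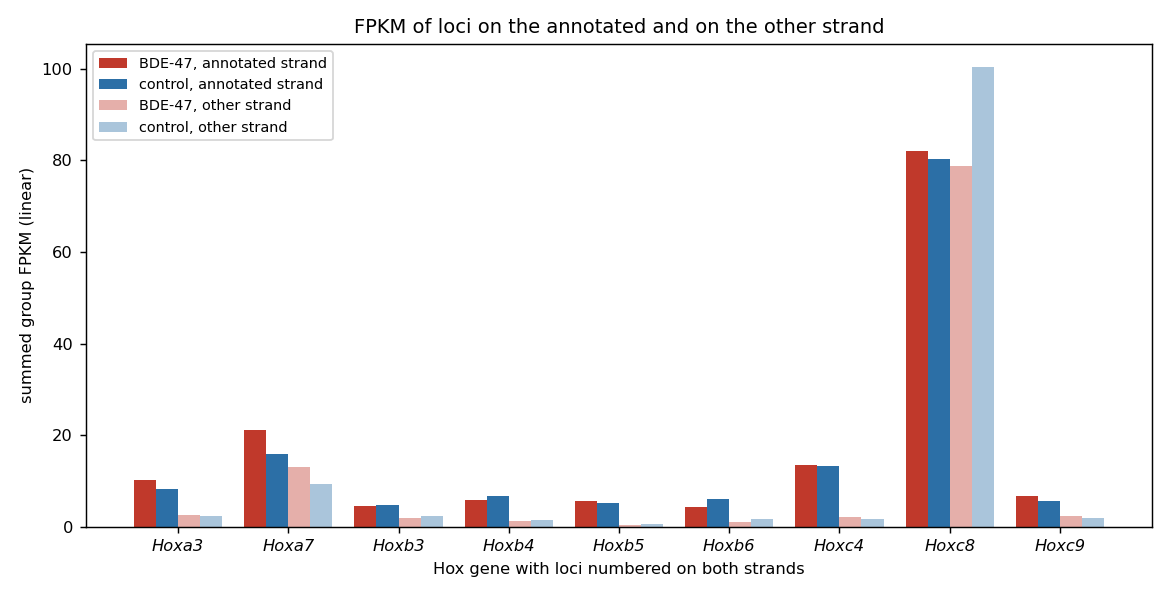
Summed group FPKM (linear axis) of the loci named for 9 Hox genes, on the annotated strand (dark bars) and on the other strand (pale bars), for BDE-47 fat (red) and control fat (blue). Hoxc8 is alone in having other-strand values, 78.8 FPKM in BDE-47 fat and 100.4 FPKM in control fat, near those of its own strand.

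Among the noncoding members, Hotairm1, which lies beside Hoxa2 and acts in human myeloid cells, was the highest, at 20.4 FPKM in BDE-47 fat and 26.7 FPKM in control fat (−0.39). Hoxd3os1, antisense within HoxD, was at 6.02 FPKM in BDE-47 fat and 11.8 FPKM in control fat, 1.96-fold higher in control fat and just short of 2-fold. A second Hoxd3os1 locus on the Hoxd3 strand ran the other way, at 1.15 FPKM in BDE-47 fat and 0.883 FPKM in control fat. Hoxb5os had a locus on each strand, at 1.52 and 1.49 FPKM in BDE-47 fat and 1.59 and 1.56 FPKM in control fat. Hoxaas2 was at 0.42 FPKM in BDE-47 fat and 0.299 FPKM in control fat. Hoxaas3, which runs antisense across Hoxa3 to Hoxa7, had 7 loci. Its annotated strand was at 0.824 FPKM in BDE-47 fat and 0.807 FPKM in control fat, and the 6 on the Hoxa strand lay between 0.707 and 2.83 FPKM in BDE-47 fat and between 0.297 and 2.45 FPKM in control fat. One of these was at 1.2 FPKM in BDE-47 fat and 0.426 FPKM in control fat, 2.81-fold.

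Genes that work with Hox proteins or set Hox expression were described from lists of other genes, chosen with earlier results of these data known. Of 9 TALE genes, whose homeodomain proteins bind DNA beside Hox proteins, 7 passed the filter and none differed 2-fold (median 0.00). Pbx2 was at 14.8 FPKM in BDE-47 fat and 16.6 FPKM in control fat, and Meis3 at 6.23 and 9.45 FPKM in these groups. Of 11 genes of Polycomb complex PRC2, which methylates histone H3 at silent Hox genes, 10 passed and none differed 2-fold (median 0.07). Rbbp7 was at 50.9 FPKM in BDE-47 fat and 53.1 FPKM in control fat, Rbbp4 at 31.6 and 29.4 FPKM, and the methyltransferase gene Ezh1 at 28.4 and 27.1 FPKM. All 12 genes of PRC1, which reads that mark, passed, with a median of 0.08. Cbx7, a chromodomain subunit, was at 58.5 FPKM in BDE-47 fat and 27.9 FPKM in control fat, 2.1-fold, and was the only PRC1 gene past 2-fold. Phc2 was at 25.3 FPKM in BDE-47 fat and 24.3 FPKM in control fat, and Bmi1 at 20.4 and 16.6 FPKM.

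All 10 MLL and trithorax genes in the table, which keep Hox genes active, passed and none differed 2-fold (median 0.09). Dpy30 was at 43.1 FPKM in BDE-47 fat and 38.3 FPKM in control fat, Psip1 at 19.3 and 18.4 FPKM and Men1 at 12 and 10.6 FPKM. Of 13 upstream genes (Cdx, Gdf11 and retinoic acid pathway), 8 passed, with a median of −0.15. The joined Aldh1a1 and E030003E18Rik locus, which holds a gene for an enzyme of retinoic acid synthesis, was at 144 FPKM in BDE-47 fat and 168 FPKM in control fat. The receptor genes Rarg and Rara were at 16.4 and 9 FPKM in BDE-47 fat and 16.9 and 9.06 FPKM in control fat. Cyp26b1, which breaks retinoic acid down, was at 1.59 FPKM in BDE-47 fat and 3.18 FPKM in control fat, 2-fold higher in control fat, and alone among the 8 in reaching that difference. The Cdx genes were at 0.0484 FPKM or less in both groups. Of 18 genes flanking the clusters, 13 passed, none differed 2-fold, and the median was 0.02. Atp5g3 was at 474 FPKM in BDE-47 fat and 468 FPKM in control fat, Hibadh at 137 and 129 FPKM and Copz1 at 68.1 and 69.6 FPKM. Evx1, the homeobox gene beyond Hoxa13, was at 0.0643 FPKM in BDE-47 fat and 0.0123 FPKM in control fat, and Evx2, beyond Hoxd13, was at 0.0229 FPKM in BDE-47 fat and listed at 0 in control fat.

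**Figure D4:**
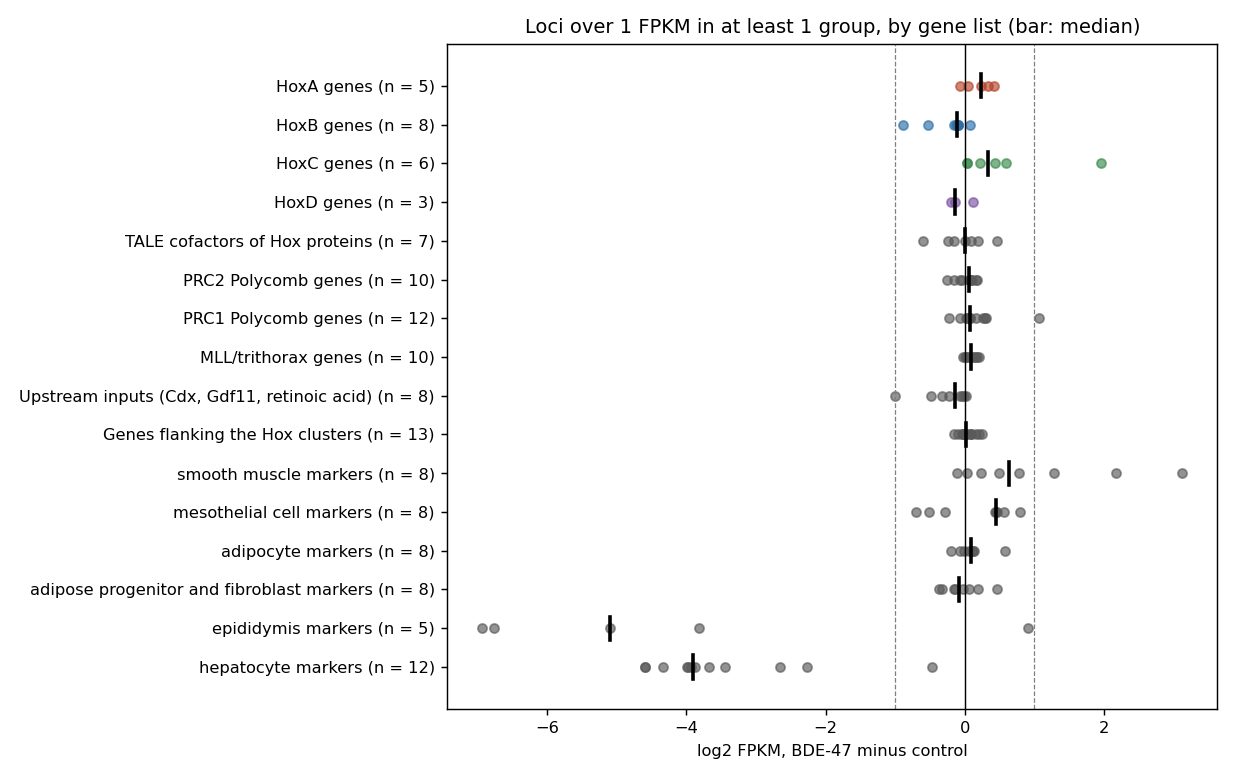
Log2 difference of group FPKM, BDE-47 minus control, of each locus over 1 FPKM in at least 1 group and above 0 in both, by gene list; the bar is the list median and dashed lines mark 2-fold. HoxA and HoxC medians lie at 0.23 and 0.33 and HoxB and HoxD medians at −0.10 and −0.14. Hepatocyte and epididymis markers lie far to the left, apart from the joined Serpina1a, Serpina1b, Serpina1d and Serpina1e locus at −0.47 and Spink2 at 0.91.

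Markers of the tissue and of other cell types were read beside these values. Adipocyte markers were abundant in both groups, with Adipoq at 3666 FPKM in BDE-47 fat and 3692 FPKM in control fat, and none of 8 differed 2-fold. Several other lists differed between the groups, in whole or in part. Of 8 smooth muscle markers 3 were at least 2-fold higher in BDE-47 fat, Actg2 (13.5 against 1.55 FPKM), Myh11 (36.3 against 14.9 FPKM) and Cnn1 (8.11 against 1.8 FPKM), and the list summed to 374 FPKM in BDE-47 fat and 333 FPKM in control fat. Mesothelial markers summed to 140.0 FPKM in BDE-47 fat and 107 FPKM in control fat, with none of 8 past 2-fold. Of 12 hepatocyte markers 11 were at least 2-fold lower in BDE-47 fat, and they summed to 227 and 905 FPKM in these groups. Of 18 epididymis markers 7 passed the filter and 6 of these were at least 2-fold lower in BDE-47 fat. Spink2, the other, was higher, at 2.89 FPKM in BDE-47 fat and 1.54 FPKM in control fat. The 18 summed to 3.48 FPKM in BDE-47 fat and 46.6 FPKM in control fat. Of the 18, 7 were listed at 0 in BDE-47 fat, Defb28 and Defb38 among them, and 5 in control fat. Lcn9 and Defb21 were listed at 0 in both groups. Macrophage markers summed to 849 FPKM in BDE-47 fat and 1339 FPKM in control fat, most of it at the joined Lyz1 and Lyz2 locus (523 and 885 FPKM). Of 8 macrophage loci 7 were lower and 1 was higher in BDE-47 fat, none by 2-fold. Skeletal muscle markers summed to 74.7 and 163 FPKM in these groups, which rested on Acta1 (28.6 FPKM in BDE-47 fat and 120.3 FPKM in control fat), while Myl1 was at 43.4 and 40.5 FPKM and Tnni2 at 1.23 and 0.859 FPKM. Adipose progenitor markers summed to 908 FPKM in BDE-47 fat and 946 FPKM in control fat, and endothelial markers to 363 and 336 FPKM. The part of these cells in the Hox values was not tested.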

How the data were processed

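Right gonadal fat of 4 BDE-47 and 3 control pups was analysed as poly(A) RNA. The authors trimmed reads in BaseSpace and aligned them with TopHat2 to mm10. Cufflinks 2.1.1 then assembled transcripts and Cuffdiff 2.1.1 compared the groups, per the submitters' processing notes. The authors dropped 1 further control library that had fewer reads. The deposited values are log2 FPKM, 1 per group and locus, with −10 standing for a listed 0. The table also holds the authors' log2 ratio, q value, test status and significance flag in 4 columns, which were not used. The paper gives a minimum number of reads but not the depth of each library, so no interval is printed. The kit is named (NEBNext mRNA Library Prep Reagent Set), but no source used here states a strand-marking step, a strand setting, the annotation or the normalization between libraries. 1 line of the table was empty.

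FPKM were taken back to the linear scale and log2 differences were formed with no pseudocount, after a filter of a gene name and over 1 FPKM in at least 1 group, as in the study. Without values per pup, no test was possible. Every Hox symbol was counted. The naming rule took all Hox symbols and, in each other list, the 3 genes of highest mean FPKM and those past 2-fold. Values of some single genes under this rule are not reported here, and other genes beside those named, markers included, were chosen after their values were seen. The members and lists were chosen with earlier results of these data known. Gene positions are from GENCODE vM21 and sequences from RefSeq (GRCm38.p6). The table's locus starts count from 0, and 1 was added. The alternatives were pseudocounts of 0.1 and 1 FPKM, other filters, centring, single-name loci, a 1.5-fold threshold, 1 locus per gene, both strands summed and another placement of joined loci. The script that counts 2-fold differences was tested on simulated data. Tools were matplotlib 3.10.9, scipy 1.17.1, numpy 2.4.6 and pandas 2.3.3 under Python 3.11.15.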

Additional observations from a re-analysis of the deposited data

Results flagged for a closer look

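Loci with no gene name took no part in the Hox counts, and 20 of them lie within the 4 cluster spans, 14 with over 1 FPKM in at least 1 group. Of these 14, 2 were at least 2-fold higher in BDE-47 fat, both in HoxC, and they are given because their level in BDE-47 fat exceeded that in control fat. XLOC_010909, within the span of the Hoxc6 locus, was at 2.1 FPKM in BDE-47 fat and 0.111 FPKM in control fat. XLOC_011650, within the span of the Hoxc4 locus, was at 1.22 FPKM in BDE-47 fat and 0.23 FPKM in control fat. A further 2 of the 14 were at least 2-fold lower in BDE-47 fat, XLOC_004568 in HoxB at 0.655 FPKM in BDE-47 fat and 2.69 FPKM in control fat and XLOC_011645 in HoxC at 1.37 and 3.46 FPKM. Over the whole table, 9.09% of the 5414 unnamed loci over 1 FPKM in at least 1 group were at least 2-fold higher in BDE-47 fat and 35.1% at least 2-fold lower. No values per pup bear on these differences.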

How the results depend on the processing

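No paired analysis was possible because the table holds no values per pup, and leaving out each pup was not run for the same reason. A value is said to have moved when it shifted by over 0.1 log2, and a count by over 1.5 times. The 2 Hox loci at least 2-fold higher became 0 with 1 FPKM added, 0 with a mean over 1 FPKM, 0 with over 5 FPKM in at least 1 group, 14 with no filter and 1 with 1 locus a gene, an alternative chosen after seeing the data. The 0 loci lower became 3 at 1.5-fold, where 3 were higher. The median over Hox loci ranged between −0.07 and 0.06, so its sign was not stable. The HoxA median of 0.23 became −0.01 over single-name loci. The HoxC median of 0.33 became 0.44 with no filter and 0.22 with either stricter filter. The HoxD median of −0.14 became −0.04 with over 5 FPKM and −0.01 over single-name loci. Other alternatives chosen after seeing the data also moved values. With both strands summed, the ratio of summed FPKM, BDE-47 over control, became 1 for HoxC (1.15) and 1.02 for all clusters (1.11). With joined loci at their highest paralog number, the share of paralogs 4 to 8 became 90.3% in BDE-47 fat (83.2%) and 89.8% in control fat (82.4%). HoxB medians ranged from −0.14 to −0.09. At the loci counted once per gene, no named Hox gene past the filter took the other sign under any alternative that kept it. With both strands summed, Hoxc8 did take the other sign, from 0.03 to −0.17 on the log2 scale. The causes of these shifts were not tested. Depth per library is unknown, and values under 0.1 FPKM are the least certain.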
